A study of Mus musculus with 2 samples.

Results

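The 111 genes described here encode serpins and the other main families of protease inhibitors. They are part of 37681 genes counted in 2 RNA-seq libraries from the mouse stomach. Members were chosen by a symbol rule, with earlier results of these data known. It took every gene whose symbol begins with Serpin or Wfdc and the numbered Spink genes. It also took Timp1 to Timp4, the cystatins, Slpi, Spint1, Spint2 and A2m. The symbol rule matched 118 genes, of which 7 are annotated as pseudogenes and were left out. Both libraries came from C57BL/6 mice carrying the Hdc-CFP transgene, a cyan fluorescent reporter named for histidine decarboxylase, the enzyme that makes histamine. One library was made from CFP-positive cells sorted from the stomach (the sorted library). The other was made from corpus epithelial cells depleted of CFP-positive cells (the depleted library). The study asked where the histamine-producing cells of the corpus come from. There was 1 library per group, so differences were measured without replicates and are reported without p-values. The construct of the transgene, the number of mice pooled and their age are not given in the sources used here.

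Serpins are a large protein family in which most members act as a single-use trap: the target protease cuts an exposed loop of the serpin, the serpin refolds, and the protease stays attached and inactive. A minority, among them the thyroxine carrier Serpina7, the collagen chaperone Serpinh1 and the pigment epithelium-derived factor Serpinf1, keep the fold and inhibit no protease. The Kazal (Spink), Kunitz (Spint), whey acidic protein (Slpi and Wfdc) and cystatin families instead mostly plug the active site reversibly. The first 3 act mainly on serine proteases and the cystatins mainly on cysteine proteases, and the TIMPs block metalloproteases. In the stomach these inhibitors meet digestive enzymes, surface serine proteases of epithelial cells, lysosomal cathepsins and the proteases of mast cells and macrophages.

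The sorted library held 10736538 gene counts and the depleted library 50928524, so genes with few reads were measured more precisely in the depleted library. Hdc itself stood at 8422 CPM (normalised read counts scaled to library size) after sorting and at 22.0 CPM in the depleted cells, which is 383-fold apart (95% interval 359 to 408). All 5 markers of enterochromaffin-like cells, the histamine-producing endocrine cells of the corpus, were higher after sorting, at a summed level of 79613 against 242 CPM. Of 9 mast cell markers, 6 were also higher there, with a summed level of 285 against 115 CPM, and all 8 macrophage markers were lower, at 10.4 against 2912 CPM. Of 5 chief cell markers 3 were lower and 2 not called, with a summed level of 16020 against 68978 CPM. Most of the sorted sum was Pgc, at 14616 CPM. All 5 parietal markers were lower, at 1342 against 8202 CPM. The 5 tuft markers (7.35 against 229 CPM) and the 4 leukocyte markers (48.5 against 544 CPM) were all lower too. The 2 libraries are mixtures, and in all that follows fewer cells of a type and less RNA per cell cannot be told apart.

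A gene was taken as measured when it had at least 10 counts in at least 1 library. It was called higher or lower when the ratio of its normalised CPM, sorted over depleted, differed by 2-fold or more and the exact binomial 95% interval of the ratio was clear of 1. These intervals cover counting error only, not the variation between animals or sorts. Where a gene had 0 counts in a library, 3 counts were put in their place, which corresponds to 0.237 CPM (sorted) and 0.0694 CPM (depleted), and the fold is then a lower bound. Of the 111 inhibitor genes 41 were measured, 39 had no count in either library, and 31 had between 1 and 9 counts in the better covered one. The counts per family below are of measured genes only and say nothing of those other genes.

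Inhibitor genes differed between the libraries in both directions. Among the 41 measured genes 13 were higher in the sorted library (31.7%, against 20.5% of all 16682 measured genes), 15 were lower (36.6%, against 23.7% of all) and 13 were neither. Their log2 folds had a median of -0.68 (-0.23 where genes at 0 are held to the bound), against -0.16 over all measured genes. Summed over all 111 genes the sorted level was 1702 CPM and the depleted level 1831 CPM. The serpins and the other families differed from each other in these counts. Of 23 measured serpins 10 were higher and 7 lower, their median log2 fold was 0.64, with a summed level of 638 against 441 CPM. Of 18 measured inhibitors of the other families 3 were higher and 8 lower, their median log2 fold was -1.13, with a summed level of 1064 against 1390.4 CPM. The split of calls depended on the scaling: with no scaling factor the higher share was 55.6% of the members' calls and 62.9% of the calls of all genes, against 46.4% and 46.3% with the TMM factors used here. Without the 20 most abundant genes in the library totals these shares were 53.8% and 57.2%.

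**Figure D1:**
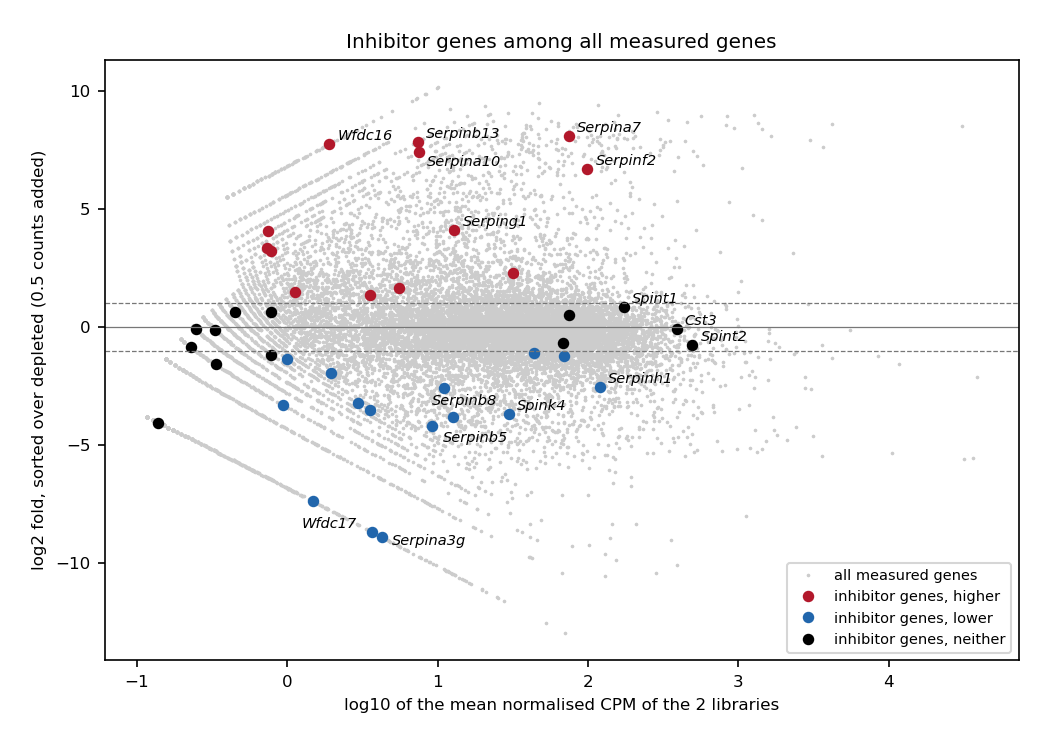
Each point is 1 measured gene: the x axis is log10 of its mean normalised CPM over the 2 libraries and the y axis its log2 fold, sorted over depleted, with 0.5 counts added. Grey points are all 16682 measured genes and coloured points the 41 measured inhibitor genes (13 higher, 15 lower, 13 neither); dashed lines mark a 2-fold difference, and Serpina7 and Serpinf2 stand out at the top for their level as well as their fold.

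Serpina7 and Serpinf2, both serpins known as plasma proteins, had the highest sorted levels per kilobase of exon among the genes called higher. The sequences upstream of these 2 genes are shown here from RefSeq, build GRCm38.p6, beside those of Serpinb12 and Serpinb5, neighbours on chromosome 1 that differed in opposite directions. Each runs 5′ to 3′ up to the base before the annotated start, or before the first annotated exon where that comes earlier. For Serpina7 and Serpinb12 RefSeq gave 2 windows around a start, and the one furthest upstream is shown. Distances given below are from the start of the window shown. Serpina7 is at chrX:139085237-139085486 on the minus strand, Serpinf2 at chr11:75439592-75439751 on the minus strand, Serpinb12 at chr1:106934199-106934448 on the plus strand and Serpinb5 at chr1:106860925-106861172 on the plus strand. Capitals mark matches, on either strand, to any of 4 motifs, none of which contains another. GTTAAT belongs to the sites of HNF1 factors of liver and gut. CAGATG is an E-box, the kind of site read by basic helix-loop-helix factors. TGTTTAC is the core letters of forkhead sites, and TATAAA is the TATA box.
Serpina7: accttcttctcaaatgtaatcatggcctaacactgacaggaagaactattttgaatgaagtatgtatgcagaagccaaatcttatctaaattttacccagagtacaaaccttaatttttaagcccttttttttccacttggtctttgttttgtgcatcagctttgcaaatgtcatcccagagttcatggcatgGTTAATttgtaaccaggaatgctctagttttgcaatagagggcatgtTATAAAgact
Serpinf2: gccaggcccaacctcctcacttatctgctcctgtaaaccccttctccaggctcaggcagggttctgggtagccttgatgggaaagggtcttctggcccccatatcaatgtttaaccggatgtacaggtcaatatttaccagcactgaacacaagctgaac
Serpinb12: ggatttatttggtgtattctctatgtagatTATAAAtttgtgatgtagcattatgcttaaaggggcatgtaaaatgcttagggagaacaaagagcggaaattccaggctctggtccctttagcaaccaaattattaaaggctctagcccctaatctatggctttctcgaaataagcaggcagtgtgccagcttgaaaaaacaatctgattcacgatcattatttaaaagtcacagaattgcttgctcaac
Serpinb5: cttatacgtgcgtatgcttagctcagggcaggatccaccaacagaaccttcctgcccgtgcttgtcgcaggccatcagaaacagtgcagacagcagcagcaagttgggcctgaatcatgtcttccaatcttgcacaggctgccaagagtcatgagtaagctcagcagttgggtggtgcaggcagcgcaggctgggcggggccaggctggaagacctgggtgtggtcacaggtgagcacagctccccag

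The 250 bases upstream of Serpina7 were AT-rich, with 36% G and C against a median of 52.4% over the 250 upstream bases of 32851 RefSeq windows (interquartile range 45.2% to 61.2%). They held GTTAAT with its first base 57 bases before the start and TATAAA with its first base 10 bases before it. Serpinb12 had TATAAA 220 bases before its start, and 38% G and C. The shorter stretches of Serpinf2 (160 bases, 51.9% G and C) and Serpinb5 (248 bases, 58.5%) held none of the 4 motifs. Over all windows GTTAAT occurred in 6.43%, CAGATG in 14.4%, TGTTTAC in 3.17% and TATAAA in 12.4%. RefSeq windows were found for 9 of the 13 higher genes, 13 of the 15 lower genes and 10 of the 13 that were neither. A gene was counted when any of its windows matched, whereas the percentages above are of windows. GTTAAT was present in 1 gene of each of these groups, Serpina7, Serpinb8 and Spint1. TATAAA was present in 2 higher genes and 1 lower gene. CAGATG was present in 2, 1 and 3 genes of the respective groups and TGTTTAC in 0 of each. A match is a run of letters, not a measured binding site.

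Serpina7 encodes thyroxine-binding globulin, a carrier of thyroid hormone in blood. It had 1883 counts after sorting and 23 in the depleted cells, or 149 and 0.532 CPM. The fold was 279.7 (95% interval 186 to 442). Serpinf2 encodes alpha-2-antiplasmin, the main inhibitor of plasmin. It had 2485 sorted counts (196 CPM) against 81 depleted counts (1.87 CPM) and was 105-fold higher (84.0 to 132). After division by exonic length Serpinf2 reached 84.5 CPM per kilobase in the sorted library, rank 3 among the inhibitor genes there, and Serpina7 reached 60.8, rank 6. In the depleted library they had ranks 22 and 30 of the measured inhibitor genes, at 0.806 and 0.217 CPM per kilobase. Serpina10 encodes the protein Z-dependent inhibitor of coagulation factor Xa. It had 188 counts against 3 (14.9 against 0.0694 CPM), a ratio of 214 with a wide interval (72.1 to 1047) set by the 3 depleted counts. Serping1 encodes C1 inhibitor, which restrains complement and the contact system. It had 308 counts against 61, or 24.3 against 1.41 CPM, and was 17.2-fold higher (13.1 to 23.1).

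Other serpins known from blood plasma had few counts. Serpinc1, antithrombin, had 4 sorted and 15 depleted counts, a ratio of 0.911 (0.220 to 2.86), and 34.4% of its exonic bases overlap exons of Zbtb37 on the other strand. Serpina5, the protein C inhibitor, had 2 and 13 counts, a ratio of 0.526 (0.0576 to 2.32). Neither interval is narrow enough to show a 2-fold difference in either direction. Serpind1, heparin cofactor II, had 7 and 6 counts, under the minimum of 10, and a ratio of 3.99 (1.15 to 14.4). The antitrypsin genes Serpina1a to Serpina1e, abundant in liver, had 0 sorted counts and 0 or 1 depleted counts. Their transcripts share long identical stretches, and the files list reads aligned to several places apart from the genes (24.2% of sorted and 34.3% of depleted alignments), so these counts may be too low. Serpina6, the carrier of corticosteroids, had no count in either library. Liver and pancreatic acinar markers are given here beside these plasma and acinar inhibitors. Of 12 acinar genes 7 were measured and 6 of these were higher, with a summed level of 1681 against 114 CPM. Cel gave most of the sorted sum, at 1128 against 2.29 CPM. Cpb1, Pnlip and Amy2a5 had 4, 3 and 2 sorted counts, and Ctrc and Cpa1 had no count in either library. Of 8 hepatocyte genes 5 were measured, of which Ttr and Ahsg were higher and Alb, Apoa1 and Tf lower. The summed hepatocyte level was 1205 against 451 CPM, Fga had no count, and the share of either cell type in the serpin levels was not tested. Spink1, the Kazal inhibitor that acinar cells make against trypsin, had 4 and 5 counts, and the pancreatic serpin Serpini2 had none. The trypsinogen gene Prss2 stood at 275 against 1.02 CPM.

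Some serpins control plasminogen activation and thrombin. Serpini1, neuroserpin, an inhibitor of tissue plasminogen activator in neurons and endocrine cells, had 64 and 86 counts, or 5.06 against 1.99 CPM. Its fold of 2.54 (1.81 to 3.55) was the closest to the threshold among the higher genes. Serpine2, protease nexin 1, was 2.87-fold higher (1.53 to 5.34) from 21 and 25 counts, and Serpine3 with 7 and 15 counts was neither. Of 5 endothelial markers, 1 was higher and 3 lower, with summed levels of 2.61 against 6.71 CPM and Cdh5 at 0 in the sorted library. Their part in the level of Serpine2 was not tested.

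Genes of the plasminogen and thrombin systems and of cell surface serine proteases, a list that also holds receptors and proteases that other inhibitors act on, differed in both directions. Of 13 measured genes in it 4 were higher (30.8%, against 20.5% of all measured genes) and 7 lower (53.8%, against 23.7% of all). The log2 folds had a median of -1.49. Tmprss2 (63.7 against 461 CPM), St14 encoding matriptase (92.3 against 260.1), Prss8 encoding prostasin (18.8 against 134) and F2rl1 encoding a protease-activated receptor (5.61 against 84.6) were lower by 7.24, 2.82, 7.14 and 15.1-fold. The activators of plasminogen, picked out here after their values were seen, differed in opposite directions. Plat, tissue plasminogen activator, was 19.4-fold higher (8.06 against 0.416 CPM). Plau, the urokinase activator, was 24.7-fold lower (0.869 against 21.5 CPM), and its receptor Plaur was 42.6-fold lower (0.869 against 37.0 CPM). Plasminogen itself, Plg, had 9 counts against 0 and was not measured. F2, prothrombin, was 61.5-fold higher (24.2 against 0.393 CPM).

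**Figure D2:**
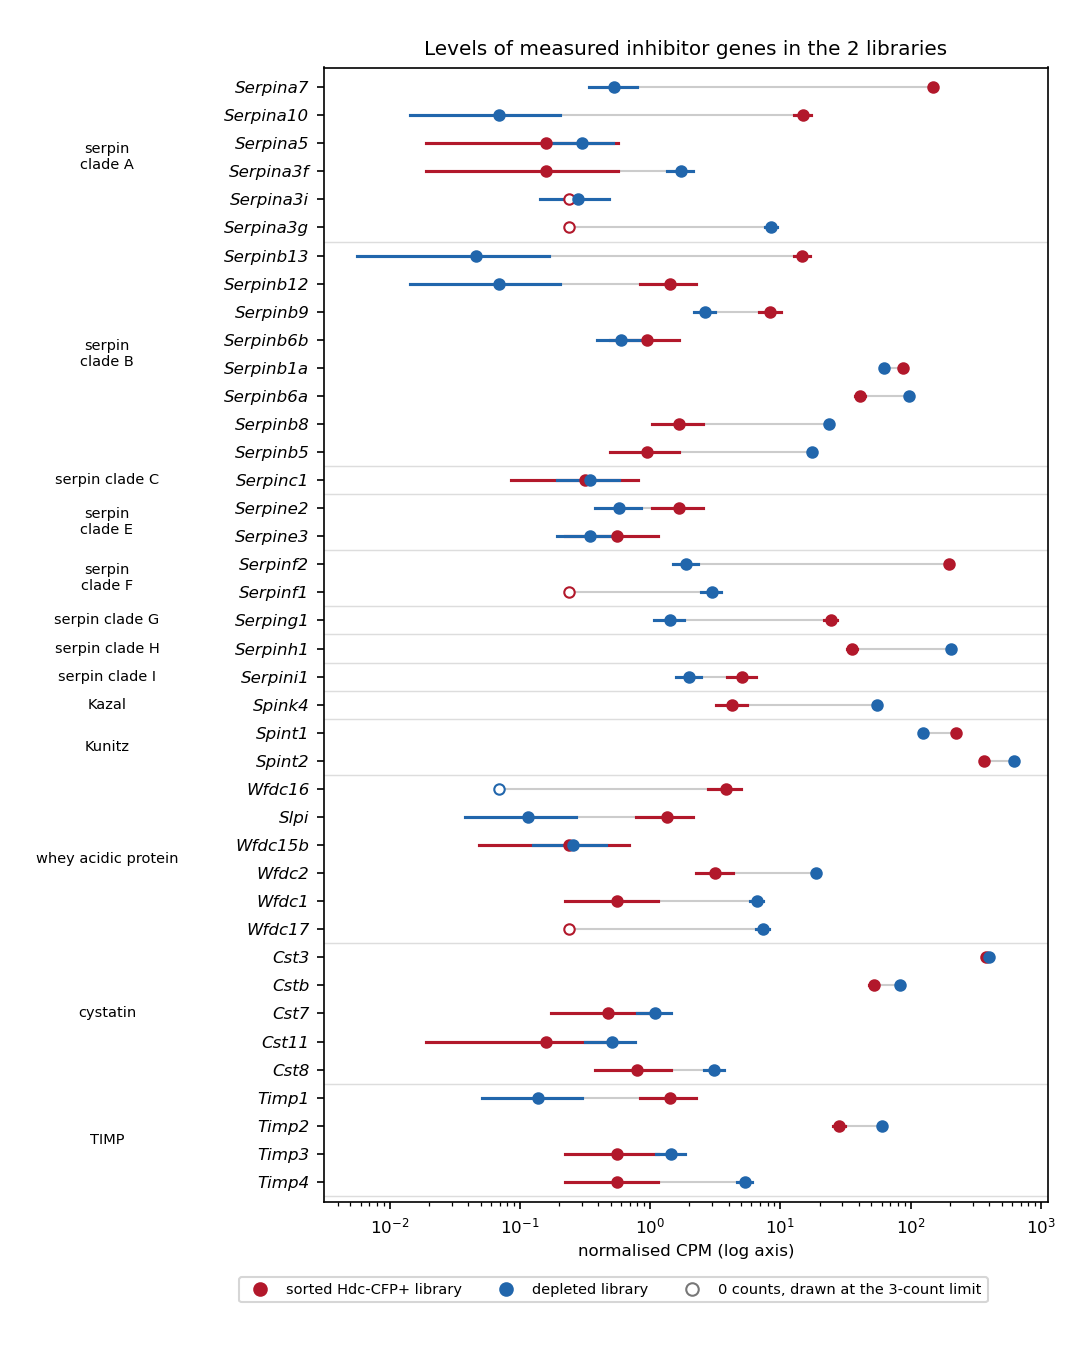
Normalised CPM (log axis) of measured inhibitor genes in the sorted (red) and depleted (blue) library, grouped by family and ordered by fold, with exact Poisson 95% intervals as horizontal bars where wider than the point. Open circles are libraries with 0 counts, drawn at the 3-count limit; Serpina7 at 149 against 0.532 CPM and Serpinf2 at 196 against 1.87 CPM span the widest gaps among abundant genes, while Cst3 at 377 and 400 CPM nearly coincides.

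Serpinf1 lies beside Serpinf2 on chromosome 11 and differed in the opposite direction. It encodes pigment epithelium-derived factor, a secreted serpin that inhibits no protease. It had 0 sorted counts against 128 depleted counts (2.96 CPM) and was at least 12.5-fold lower. Serpinh1, the endoplasmic reticulum chaperone of collagen, was the most abundant serpin of the depleted library per kilobase of exon (83.6 CPM per kilobase, against 14.5 in the sorted library). Its counts were 448 and 8825, or 35.4 against 204 CPM, 5.77-fold lower (5.24 to 6.36). Fibroblasts are a known source of both. Of 6 fibroblast markers 5 were lower, with a summed level of 0.711 against 19.6 CPM and with Col3a1 and Pdgfra at 0 in the sorted library. The part of fibroblasts in these 2 serpins was not tested.

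Clade B serpins stay inside the cell and lie mainly in one group on chromosome 1 and another on chromosome 13. On chromosome 1, 4 of 11 genes were measured, 2 higher and 2 lower. Over all measured genes 20.5% were higher and 23.7% lower. Serpinb13, an inhibitor of cathepsins known from squamous epithelium, had 186 counts against 2 (14.7 against 0.0463 CPM), a ratio of 318 (86.7 to 2643). Serpinb12, an inhibitor of trypsin-like proteases, had 18 counts against 3, a ratio of 20.5 (5.98 to 109). They lie side by side, and next to Serpinb12 on the other side is Serpinb5, maspin, an epithelial serpin that does not inhibit proteases by the usual trap. Serpinb5 had 12 sorted and 753 depleted counts, or 0.948 against 17.4 CPM, and was 18.4-fold lower (10.5 to 35.7). Serpinb8, at the far end of the group and known to inhibit furin, had 21 and 1018 counts and was 14.2-fold lower (9.23 to 23.0). Furin itself stood at 221 against 314 CPM and was not called. The 7 genes between them had at most 4 counts.

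Squamous epithelium of the forestomach, which borders the corpus, is a known source of clade B serpins. Of 10 squamous markers 3 were measured and 2 of these were lower in the sorted library, with a summed level of 1.19 against 33.6 CPM. Sprr1a gave nearly all of it, with 7 and 1368 counts. Trp63, Dsg3 and Sprr3 had no count in either library, and Krt5 had 0 and 2 counts. The part of squamous epithelium in the levels of Serpinb5, Serpinb12 and Serpinb13 was not tested.

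On chromosome 13, 4 of 15 clade B genes were measured. Serpinb9, an inhibitor of granzyme B, had 106 and 114 counts (8.38 against 2.64 CPM) and was 3.18-fold higher (2.41 to 4.17). Serpinb6a, an inhibitor of trypsin-like proteases and cathepsin G, had 521 and 4224 counts (41.2 against 97.7 CPM) and was 2.37-fold lower (2.17 to 2.60). The call of Serpinb6a was lost with no scaling factor, where it was 1.71-fold lower, and 29.3% of its exonic bases overlap genes on the other strand. Serpinb1a, an inhibitor of neutrophil elastase, had 1102 and 2680 counts, or 87.1 against 62.0 CPM, a fold of 1.40 (1.31 to 1.51), and was not called. Serpinb6b, with 12 and 26 counts, was 1.58-fold higher (0.725 to 3.24) and not called, but was called with no scaling factor (2.19-fold). A list of mast cell, neutrophil and lymphocyte proteases, which holds targets of these serpins, included 10 measured genes. Of these 5 were higher (50%, against 20.5% of all measured genes) and 1 lower (10%, against 23.7% of all). Mcpt2 stood at 46.4 against 21.8 CPM and Mcpt4 at 26.3 against 1.02 CPM, both called higher, and Tpsab1 (42.8 against 23.1 CPM) and Mcpt1 (37.9 against 23.1 CPM) were not called. Of the target proteases named above, Elane, neutrophil elastase, had 0 and 29 counts and was at least 2.83-fold lower, Ctsg, cathepsin G, had 13 and 12 counts and was 3.70-fold higher (1.56 to 8.87), and Gzmb, granzyme B, had 4 and 10 counts and was not called. Whether mast cell RNA contributes to the serpin levels was not tested.

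The clade A group on chromosome 12 was the largest, with 23 genes, of which 5 were measured. Serpina10 at one end was the only one of them that was higher. Towards the other end Serpina3g, an intracellular inhibitor of cathepsins in leukocytes, had 0 sorted counts against 366 depleted counts (8.47 CPM) and was at least 35.7-fold lower. Its neighbour Serpina3f was 10.8-fold lower (2.89 to 91.1) from 2 and 74 counts, and Serpina3i had 0 and 12 counts and was not called. The last gene of the group, Serpina3n, had 9 and 8 counts, under the minimum of 10, and a ratio of 3.84 (1.32 to 11.4). Serpina3g, Serpina3f and Serpina3i share 15.5%, 10.6% and 15.9% of their 50-base words with other genes, among them each other and the pseudogenes Serpina3h and Serpina3e-ps, so their reads may have been split or dropped. Serpina7 lies apart from this group, on the X chromosome.

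**Figure D3:**
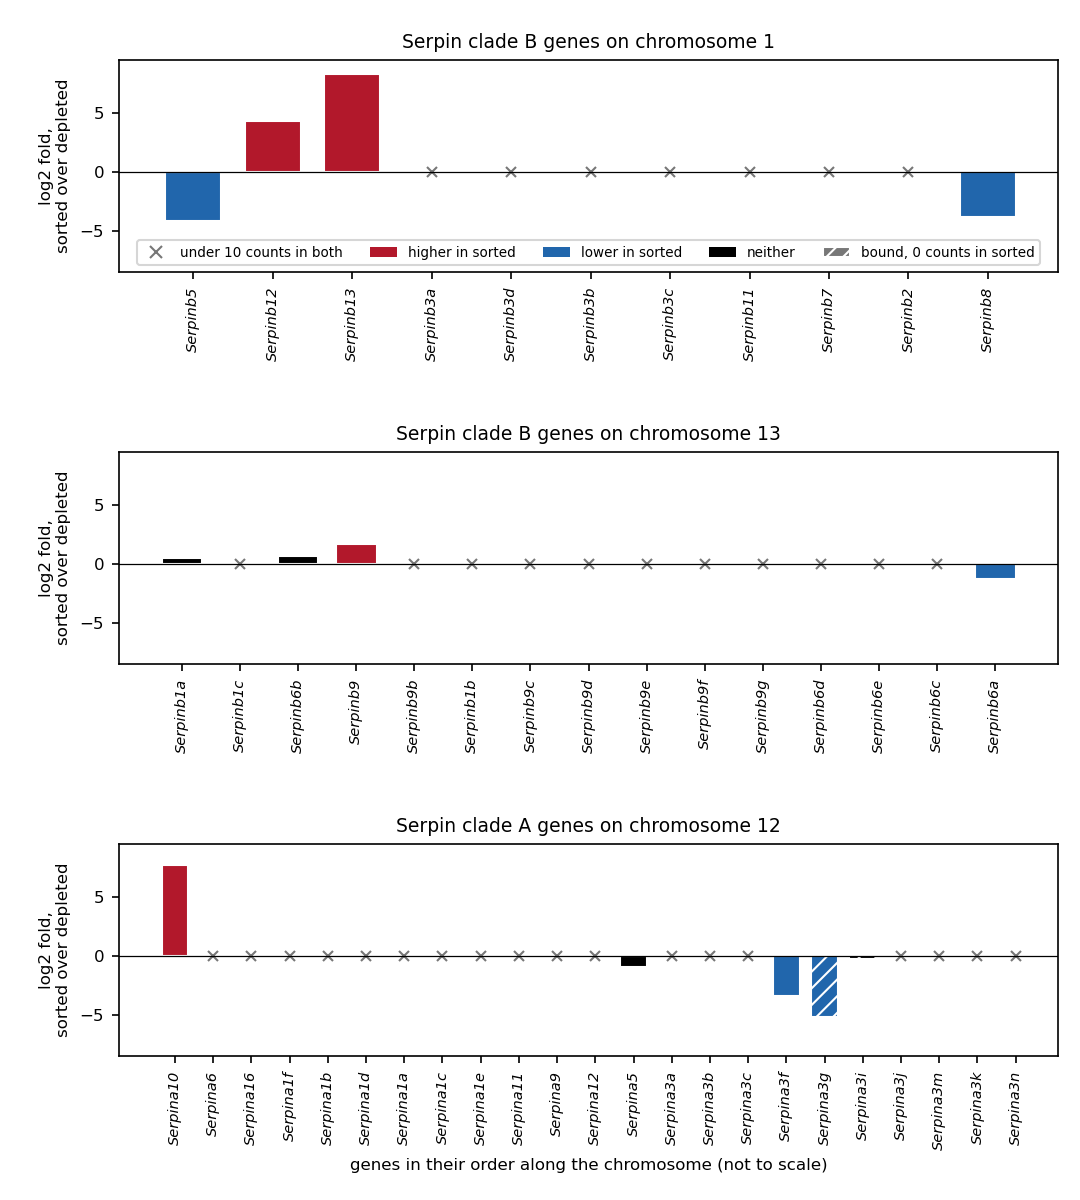
Log2 fold, sorted over depleted, of serpin genes in their order along chromosomes 1, 13 and 12, not to scale and without pseudogenes. Bars are measured genes (red higher, blue lower, black neither; hatched bars are bounds for 0 counts in the sorted library) and crosses genes with under 10 counts in both; Serpinb5 and Serpinb8 point down and Serpinb12 and Serpinb13 between them point up.

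The Kunitz inhibitors Spint1 and Spint2 sit in the epithelial cell membrane and inhibit matriptase, prostasin and hepsin. They differed in opposite directions without reaching the threshold. Spint2 had 4610 sorted and 26909 depleted counts, or 364 against 623 CPM, 1.71-fold lower (1.66 to 1.76). Spint1 had 2822 and 5360 counts, or 223 against 124 CPM, 1.80-fold higher (1.72 to 1.88). On the higher side it was the uncalled gene closest to the threshold, and it was called with no scaling factor (2.50-fold) and without the 20 most abundant genes in the totals (2.23-fold). Per kilobase of exon Spint1 and Spint2 were almost level in the sorted library (80.6 and 80.0 CPM per kilobase), whereas in the depleted library Spint1 stood at 44.8 and Spint2 at 137.

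Many cystatins, though not all, inhibit cysteine proteases of lysosomes. Cst3, cystatin C, a secreted inhibitor made by most cells, was the most abundant inhibitor gene per kilobase in both libraries, at 298 and 316 CPM per kilobase. It had 4776 and 17272 counts, or 377 against 400 CPM, a ratio of 0.945 (0.915 to 0.975). The direction of this small difference turned with the scaling, to 1.31 with no factor and 1.02 with upper-quartile factors. Cstb, cystatin B, an intracellular inhibitor of cathepsins, had 661 and 3613 counts (52.2 against 83.6 CPM) and was 1.60-fold lower (1.47 to 1.74). Cst8, a cystatin known from the male reproductive tract, had 10 and 134 counts and was 3.92-fold lower (2.07 to 8.37). Cst7, cystatin F of immune cells, had 6 and 47 counts, a ratio of 0.436 (0.152 to 1.02). Cst11 had 2 and 22 counts, a ratio of 0.311 (0.0354 to 1.26). Neither Cst7 nor Cst11 was called, because both intervals include 1, and Cst8 was the only one of 5 measured cystatins that was called.

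Cathepsins and related cysteine proteases are the enzymes that many cystatins inhibit. Of 10 cysteine proteases, all measured, 2 were higher (20%, against 20.5% of all measured genes) and 5 lower (50%, against 23.7% of all). Their median log2 fold was -0.76. Ctsl was 5.83-fold higher, at 642 against 110.0 CPM. Ctsb (579 against 1632 CPM) was 2.82-fold lower, Lgmn, legumain (69.9 against 302 CPM), 4.32-fold lower and Ctsc (3.64 against 383 CPM) 105-fold lower. Ctsz (162 against 164 CPM), Ctso (43.2 against 32.4 CPM) and Ctsk (0.869 against 0.578 CPM) were not called. Ctss, a gene singled out for its value, was 505-fold lower (245 to 1256) from 7 and 12076 counts. Macrophages are rich in Ctss and Ctsc, and all 8 macrophage markers were lower, as given above, none of them at 0. Their part in the cathepsin and cystatin levels was not tested.

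Most whey acidic protein genes had few or no counts, and of 19 genes 6 were measured. Of these 2 were higher (33.3%, against 20.5% of all measured genes) and 3 lower (50%, against 23.7% of all). Wfdc16 had 48 sorted counts (3.79 CPM) against 0 and was at least 54.7-fold higher. Slpi, secretory leukocyte protease inhibitor, an antimicrobial inhibitor of elastase, had 17 counts against 5 and was 11.6-fold higher (4.11 to 40.3). Wfdc2 had 40 and 812 counts (3.16 against 18.8 CPM) and was 5.94-fold lower (4.33 to 8.38). Wfdc1 had 7 and 284 counts and was 11.9-fold lower (5.69 to 29.8). Wfdc17, known from macrophages, had 0 and 317 counts, at least 30.9-fold lower, while the macrophage markers stood at 10.4 against 2912 CPM. A part of macrophage RNA in Wfdc17, as in Serpina3g, was not tested. Slpi, Wfdc2 and Wfdc16 belong to 1 group of 15 genes on chromosome 2, of which 4 were measured, 2 higher and 1 lower. The call of Slpi was lost with a minimum of 30 counts. Wfdc15b, in the same group, had 3 and 11 counts and was neither.

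Spink4 was the only measured gene of the 12 Kazal genes. It encodes a small inhibitor secreted by mucus-producing cells of the gut. It had 54 sorted counts (4.27 CPM) against 2381 depleted counts (55.1 CPM) and was 12.9-fold lower (9.86 to 17.2). Per kilobase it had rank 4 among inhibitor genes in the depleted library, at 116 CPM per kilobase. Of 4 surface mucous markers the 3 measured were all lower, at 3313 against 153433 CPM in sum. Tff1 was listed at 0 in both libraries. The annotation used for counting is not stated, so a count of 0 may not mean absence. All 3 mucous neck markers were lower too, at 794 against 7212 CPM. Whether mucous cells account for Spink4 was not tested. A2m, alpha-2-macroglobulin, the broad protease trap of plasma, had 0 and 4 counts.

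All 4 TIMP genes were measured. Of these 1 was higher (25%, against 20.5% of all measured genes) and 3 lower (75%, against 23.7% of all). Timp2 had the highest level per kilobase of the 4 in both libraries, with 357 and 2586 counts or 28.2 against 59.8 CPM, and was 2.12-fold lower (1.90 to 2.38). This was the closest of the lower genes to the threshold, and with upper-quartile factors it was 1.97-fold lower and not called. Timp1, an inducible inhibitor of many matrix metalloproteases, had 18 counts against 6 and was 10.2-fold higher (3.90 to 31.5). Timp4 had 7 and 231 counts (0.553 against 5.35 CPM) and was 9.66-fold lower (4.61 to 24.3). Timp3, which binds the matrix, had 7 and 62 counts and was 2.59-fold lower (1.19 to 6.72), but 1.87-fold lower and not called with no scaling factor, and 21.3% of its exonic bases overlap Syn3 on the other strand. Only Timp2 had over 100 counts in the sorted library, so the folds of the others rest on few reads.

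A list of metalloproteases, the class of enzymes that TIMPs block, was not restricted to known TIMP targets. Of its 18 measured genes 10 were lower (55.6%, against 23.7% of all measured genes) and 4 higher (22.2%, against 20.5% of all). The median of their log2 folds was -1.63. Adam10 (100.2 against 384 CPM), Adam9 (70.7 against 265), Mmp15 (50.9 against 141) and Adam17 (49.7 against 128), all membrane proteases, were lower by 3.83, 3.75, 2.77 and 2.58-fold. Mmp24, also singled out for its value, was 53.5-fold higher at 24.7 against 0.463 CPM, and Mmp13 had 0 and 1088 counts. The digestive proteases with a trypsin fold went the other way. Of 5 measured genes 4 were higher (80%, against 20.5% of all measured genes) and 1, Cela1, was lower (20%, against 23.7% of all). Cela1 stood at 34.4 against 109 CPM. Prss2, Cela2a (70.5 against 0.602 CPM) and Ctrb1 (6.16 against 0.0926 CPM) were among the higher. Of 6 measured convertases that cut precursor proteins 2 were higher (33.3%, against 20.5% of all measured genes) and 0 lower. The higher ones were Pcsk1 (633 against 3.01 CPM) and Pcsk2. Furin, Pcsk6 (55.6 against 78.3 CPM) and Pcsk7 (53.5 against 105 CPM) were not called.

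Inhibitors that the symbol rule did not take in were mostly higher in the sorted library. Of 30 such genes 20 were measured, and the log2 folds had a median of 2.86. Of these 15 were higher (75%, against 20.5% of all measured genes) and 3 lower (15%, against 23.7% of all). Their list was written with results of these libraries known, so its direction is no independent evidence. Scg5, the chaperone and inhibitor of the convertase Pcsk2, stood at 996 against 5.69 CPM, 175-fold higher. Ahsg, fetuin-A, a cystatin-fold protein of plasma, stood at 394 against 1.23 CPM, 322-fold higher, and also belongs to the hepatocyte list. Spock2, a testican, stood at 113 against 2.38 CPM, 47.3-fold higher. Cast, calpastatin, the inhibitor of calpains, was 2.92-fold lower at 27.4 against 80.0 CPM.

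**Figure D4:**
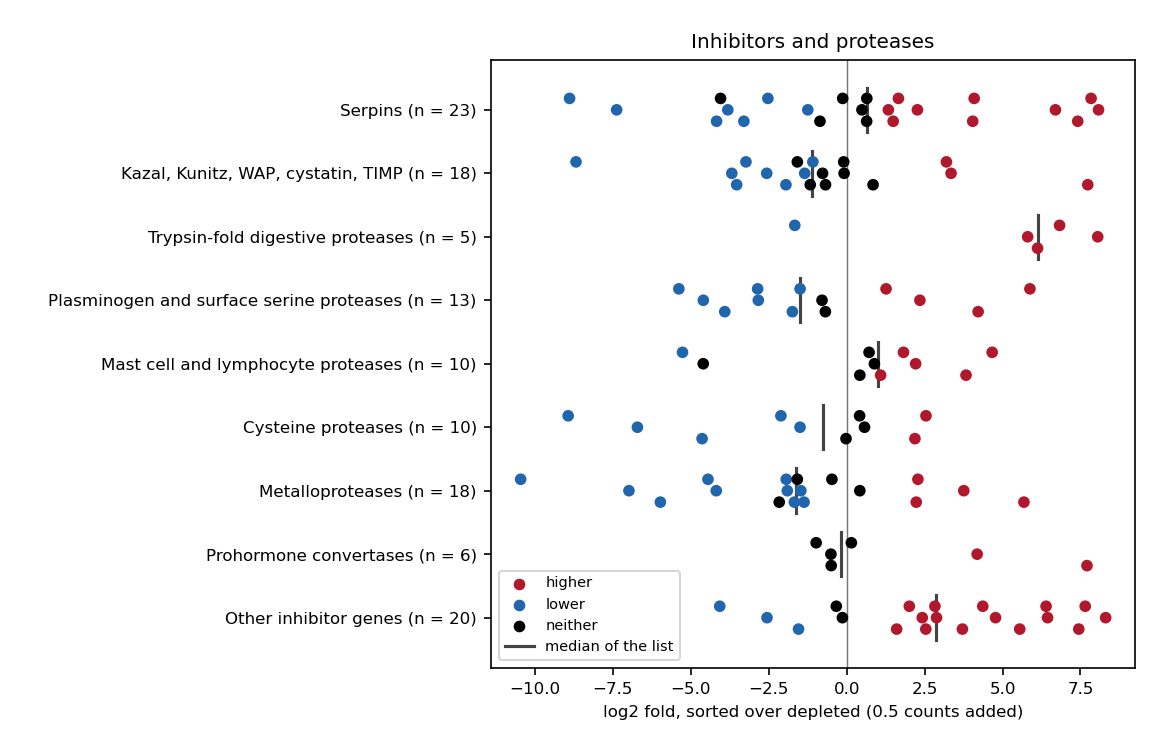
Log2 fold, sorted over depleted with 0.5 counts added (x axis), of the measured genes in each inhibitor and protease list, with the number measured in brackets. Each point is a gene (red higher, blue lower, black neither) and each vertical line a list's median, which was 0.64 for serpins, -1.13 for the other inhibitor families, -1.63 for metalloproteases and 2.86 for the other inhibitor genes.

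A few genes held most inhibitor reads of each library, and they were partly different genes. In the sorted library Cst3 took 22.2% of the counts of all 111 genes, Spint2 21.4%, Spint1 13.1%, Serpinf2 11.5% and Serpina7 8.74%. In the depleted library Spint2 took 34.0%, Cst3 21.8%, Serpinh1 11.2%, Spint1 6.77% and Serpinb6a 5.34%, and Serpinf2 and Serpina7 took 0.102% and 0.0291%. These are shares of reads, which also depend on transcript length. The share of Cst3 was nearly the same in both libraries, while those of Serpinf2 and Serpinh1 were not.

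**Figure D5:**
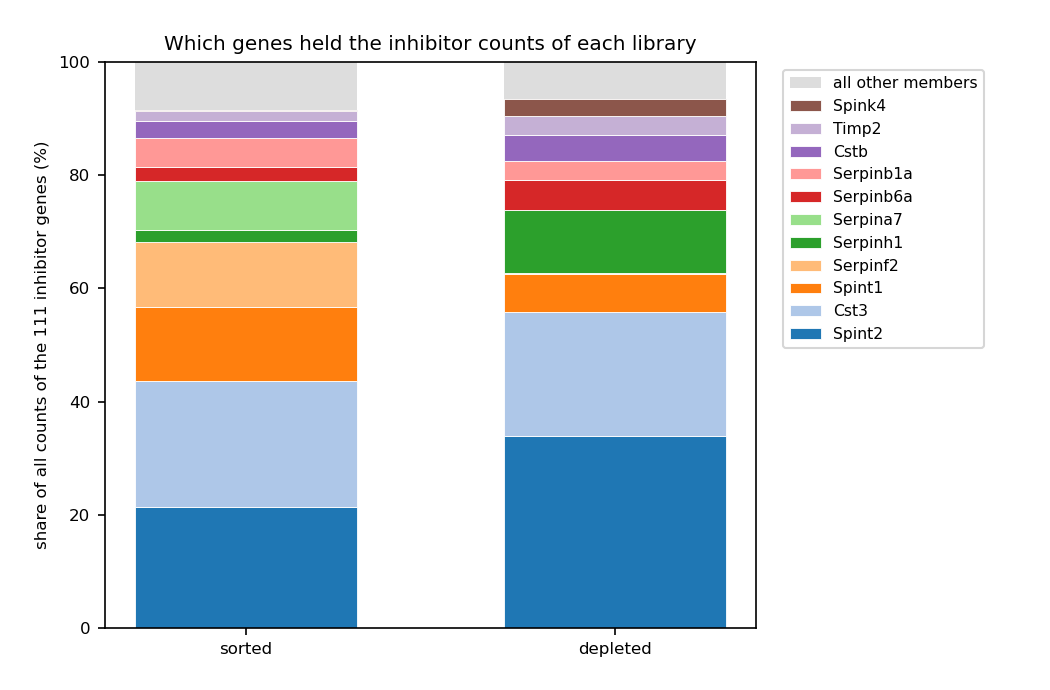
Stacked bars give each gene's share (%) of the counts of all 111 inhibitor genes in the sorted and the depleted library. Cst3 holds 22.2% and 21.8%, Serpinf2 and Serpina7 are visible only in the sorted bar (11.5% and 8.74%), and Serpinh1 widens from 2.08% to 11.2% in the depleted bar.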

How the data were processed

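RNA of 1 sorted and 1 depleted library was sequenced. Per the labels, the kits were RNeasy mini for extraction and TruSeq RNA for library preparation. The deposited values are whole-number read counts per Ensembl gene, made by the authors with TopHat2 2.0.07 and HTSeq on mm9, per the submitters' processing notes. Strand setting and annotation release are not stated there. The 5 summary rows (34.9% of sorted and 40.4% of depleted alignments) were left out.

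Symbols, exonic lengths, gene order and overlaps came from GENCODE M21 (GRCm38), which gave 32642 identifiers a symbol. edgeR 4.0.16 (R 4.3.3) gave TMM factors over all genes of 1.18 and 0.849. Levels are CPM of the scaled total with exact Poisson intervals, and folds have Clopper-Pearson intervals from scipy 1.17.1. Log2 folds had 0.5 counts added in proportion to library size. The calculation was tested on simulated data. Alternatives were other scalings (DESeq2 1.42.0 among them), count filters, a stricter call and leaving out genes with shared sequence. Cleavage stimulation factor genes (Cstf) and Cstad, which are no cystatins, were left out.

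One member is not reported here by name, and the counts over all members include it. The members and lists were chosen with earlier results of these data known. Members named were the 15 with the highest CPM, the 10 most extreme in each direction and those nearest the threshold, with up to 4 genes of each other list. Timp3, Cst7, Cst8, Cst11, Serpina3f, Serpina3i, Serpinb6b, Serpinb9, Serpinc1, Serpine2, Serpine3 and Wfdc15b lie outside that rule and were named after their values were seen, as were the unmeasured genes, Plat, Plau, Plaur, F2, Plg, Elane, Ctsg, Gzmb, Ctss, Ctsz, Ctso, Ctsk, Mmp13, Mmp24 and Pcsk2.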

Additional observations from a re-analysis of the deposited data

How the results depend on the processing

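No paired analysis was possible because each group has 1 library. The number of inhibitor genes called higher ranged from 9 to 16 and the number called lower from 11 to 15 over the alternatives, and every count stayed within 1.5 times that reported. No called gene turned its direction. Calls lost with another scaling were those of Timp2, Timp3 and Serpinb6a, and with a minimum of 30 counts those of Timp1, Serpinb12, Serpine2 and Slpi, which are then not measured. Spint1 and Serpinb6b gained a call with no scaling factor, and Spint1 also without the 20 most abundant genes. The median log2 fold moved with the scaling, to -0.20 with no scaling factor, -0.57 with upper-quartile factors, -0.37 without the 20 most abundant genes and -0.57 with TMM factors over genes with at least 10 counts, the last chosen after seeing the data. It was -1.13 with a minimum of 30 counts, -1.18 with a minimum of 1 count and -0.11 without the members sharing over 10% of their 50-base words. These scalings moved the log2 fold of all genes by 0.47, 0.11, 0.31 and 0.11 in the order given. Of the folds of named genes, 110 stayed within their interval and 35 moved out of it. The sorted library's depth, 4.74 times lower, limits genes near 10 counts.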

Other observations

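Among members below the minimum of 10 counts, 3 would be called higher if 1 count sufficed, and are given here as values only: Cst6 with 7 sorted and 0 depleted counts, Serpina3n with 9 and 8, and Serpind1, heparin cofactor II, with 7 and 6. Of the 7 pseudogenes left out, Serpina3h had 0 and 30 counts and the others at most 2 in either library.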
